A study of Mus musculus with 4 samples.

Results

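The germline and meiosis genes are 36 protein-coding genes, named by their mouse symbols, whose products act in germ cells, in the pairing of meiotic chromosomes, in meiotic recombination, in the piRNA pathway or in the oocyte. The deposited tables list a level in some gene region for 28883 genes, among them 35 of the 36, all but Dmc1, and 34 have such a level in all 4 libraries. They were chosen by name, not by a measured value, although earlier results of these data were known when they were chosen. The 4 libraries of reduced representation bisulfite sequencing (RRBS) come from the mouse mesenchymal line C3H10T1/2, which is grown from embryo cells of the C3H strain. NC cells had received a control siRNA for 48 h and siDNMT1 cells an siRNA against DNA methyltransferase 1 (DNMT1), for 48 h as well. Both were left uninduced, or were kept for 3 days in osteoblast (OB) medium with 50 μM ascorbic acid, 10 mM β-glycerophosphate and dexamethasone, which gives the NC OB and siDNMT1 OB libraries. Each condition has 1 library of 1 cell line, so no difference has a replicate check, no test was made, and the effect of an siRNA cannot be told apart from the difference between 2 cultures. The unit throughout is the methylation level, the fraction of CpG cytosines in a region that were methylated, from 0 to 1. The reads behind a level are not given, so its depth is unknown and no counting interval can be set.

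In mammals, many promoters of germline genes carry a dense cluster of CpGs, a CpG island. Most islands at gene starts stay free of methylation in every cell type, whereas islands of a set of germline genes gain methylation in the early embryo and keep it in somatic cells, where these genes are silent. DNMT1 copies such methylation to the new strand at each cell division, and in embryonic cells a Polycomb complex that binds E-box and E2F motifs through MGA, MAX and E2F6 is known to mark many of these promoters. C3H10T1/2 cells are somatic, so their germline genes lie outside the lineage in which they normally act. No transcript level of these genes was used here, and neither was the amount of DNMT1 in the 4 cultures.

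The sequences just upstream of 8 starts are shown first, because they show the CpGs that lie next to the start. Capitals mark CpGs, all other bases are in lower case, and each stretch ends before the first annotated exon base. They were read 5′ to 3′ on the strand of the gene from RefSeq promoter windows of the GRCm38.p6 build, to which the mm10 coordinates of the files correspond. The first 5 belong to genes whose start island was highly methylated. They come from Slc25a31 (chr3:40708621-40708854, plus strand, 17 CpGs in 234 bases), Sycp1 (chr3:102936101-102936350, minus strand, 17 CpGs in 250 bases) and Mael (chr1:166238748-166238994, minus strand, 18 CpGs in 247 bases). Hormad1 (chr3:95559427-95559676, plus strand, 19 CpGs in 250 bases) and Fkbp6 (chr5:135350045-135350294, minus strand, 17 CpGs in 250 bases) complete them. Sycp3 (chr10:88459337-88459568, plus strand, 10 CpGs in 232 bases) is shown as the promoter with the largest rise between libraries. Sycp2 (chr2:178407686-178407908, minus strand, 7 CpGs in 223 bases) is shown as a CpG-poor promoter with a level as high as any. Brdt (chr5:107330944-107331158, plus strand, 14 CpGs in 215 bases) is shown as the promoter listed at 0 in every library.
Slc25a31: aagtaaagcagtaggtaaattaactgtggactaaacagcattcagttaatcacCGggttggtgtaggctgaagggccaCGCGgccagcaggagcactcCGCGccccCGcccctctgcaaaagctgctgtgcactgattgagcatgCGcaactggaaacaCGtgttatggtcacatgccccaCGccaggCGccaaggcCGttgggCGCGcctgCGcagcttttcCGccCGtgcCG
Sycp1: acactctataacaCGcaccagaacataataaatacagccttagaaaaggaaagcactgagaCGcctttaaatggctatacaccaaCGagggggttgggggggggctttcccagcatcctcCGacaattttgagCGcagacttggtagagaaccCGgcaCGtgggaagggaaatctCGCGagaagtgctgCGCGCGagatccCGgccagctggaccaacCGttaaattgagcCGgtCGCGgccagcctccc
Mael: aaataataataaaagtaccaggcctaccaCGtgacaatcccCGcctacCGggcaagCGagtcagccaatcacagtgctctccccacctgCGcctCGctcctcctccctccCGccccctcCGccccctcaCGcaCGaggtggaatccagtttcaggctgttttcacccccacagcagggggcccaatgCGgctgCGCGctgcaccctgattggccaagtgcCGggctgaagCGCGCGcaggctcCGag
Hormad1: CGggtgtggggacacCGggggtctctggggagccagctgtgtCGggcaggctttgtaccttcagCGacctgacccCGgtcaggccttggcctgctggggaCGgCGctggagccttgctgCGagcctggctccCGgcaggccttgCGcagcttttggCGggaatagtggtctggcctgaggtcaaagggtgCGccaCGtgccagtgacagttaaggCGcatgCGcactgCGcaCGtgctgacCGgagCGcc
Fkbp6: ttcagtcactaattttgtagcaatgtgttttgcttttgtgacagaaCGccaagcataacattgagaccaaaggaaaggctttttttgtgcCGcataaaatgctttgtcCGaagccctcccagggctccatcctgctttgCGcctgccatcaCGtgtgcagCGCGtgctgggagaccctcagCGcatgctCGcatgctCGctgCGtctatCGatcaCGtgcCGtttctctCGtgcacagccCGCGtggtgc
Sycp3: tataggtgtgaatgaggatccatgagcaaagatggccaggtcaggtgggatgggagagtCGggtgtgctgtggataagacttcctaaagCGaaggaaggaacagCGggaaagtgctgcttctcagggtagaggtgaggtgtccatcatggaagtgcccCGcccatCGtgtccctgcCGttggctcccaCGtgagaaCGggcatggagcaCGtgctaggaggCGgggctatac
Sycp2: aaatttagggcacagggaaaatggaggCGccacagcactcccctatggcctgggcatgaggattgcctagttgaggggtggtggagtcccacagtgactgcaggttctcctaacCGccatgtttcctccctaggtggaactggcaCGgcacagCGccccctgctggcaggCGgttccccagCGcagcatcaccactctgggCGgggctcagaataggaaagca
Brdt: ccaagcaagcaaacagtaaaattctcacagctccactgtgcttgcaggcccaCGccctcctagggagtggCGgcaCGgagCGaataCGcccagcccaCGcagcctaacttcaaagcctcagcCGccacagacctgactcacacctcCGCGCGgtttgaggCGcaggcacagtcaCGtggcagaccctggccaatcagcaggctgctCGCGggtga

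Of these stretches that of Sycp2 holds the fewest CpGs. The E-box CACGTG, seen with its CpG in capitals as caCGtg, stands in all of them but that of Sycp2. RefSeq promoter windows, which run from 250 bases before a start to 50 bases after it, were found for 33 of the 36 genes and not for Piwil2, Rnf17 and Spo11. Searched on both strands, CACGTG was present in 16 of these 33 windows (48.5%) and in 7.20% of the 27025 windows of all genes. GCGGGA, a core of the E2F motif, was present in 14 of the 33 (42.4%) and in 20.2% of all windows. Both motifs were found in 8 windows (24.2%, against 2.07% of all), those of Ddx4, Hormad1, Mael, Slc25a31, Stag3, Sycp1, Sycp3 and Zp3, and they shared no base in any member window. The share of the E-box was also above the rest among CpG-rich windows, those with a CpG observed/expected ratio of at least 0.6. It was present in 12 of 20 such windows of the germline genes and in 11.4% of 9884 such windows of all genes. For the E2F core the CpG-rich shares were closer, 11 of 20 against 43.2%. A match describes the letters of the window and does not show that a factor is bound there. Among the 11 members with a window and a start island at or above 0.6, 7 had the E-box, as had 2 of the 4 with a less methylated start island. In Brdt and Mei1, both among these 4, the window and the island lie at different starts.

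The germline genes stood furthest above the rest of the genome at their starts. A promoter here is the 2 kb upstream of the transcription start, following the authors' definition, and 26 of the 36 genes have a promoter level in all 4 libraries. Their mean level over the libraries had a median of 0.675, and 16 of the 26 were at or above 0.6, a level reached by 17.4% of the 20152 promoters with 4 levels, whose median was 0.180. Only Brdt was below 0.2, and the other 9 lay between. The 5′ UTR entries, which cover the first transcribed bases, gave a wider gap. Of 19 member entries 12 were at or above 0.6, against 6.07% of all 11491, and the medians were 0.807 and 0.0273. The gap narrowed in the gene body. Of the exon entries 17 of 29 were at or above 0.6 (26.0% of all), with medians of 0.641 and 0.353, and of the intron entries 18 of 30 (22.3% of all), with medians of 0.668 and 0.414. In 3′ UTRs, of which the germline genes have 4 entries, 1 was at or above 0.6, where 60.6% of all entries were. The median was 0.422 against 0.668 over all 4354, so there the germline genes were not above the rest.

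CpG islands at starts showed the difference most plainly. An island was taken as lying at a start if it came within 500 bases of the start of an annotated transcript of a protein-coding gene, and 17 germline genes have 1 such island each with a level in all 4 libraries. Of these 17, 13 were at or above 0.6, against 5.18% of the 11424 islands at starts, and the median levels were 0.805 and 0.0223. The lower quartile of the member islands, 0.664, stood above the upper quartile of all islands at starts, 0.147. Stag3, Tdrd5 and Mei1 had intermediate islands, between 0.310 and 0.425, and that of Brdt had a mean of 0.0328. The islands mostly stood above the promoter of the same gene. In the 15 genes with both, and with the island within 500 bases of the start of the gene, the island was higher in 10, by at least 0.1 in Sycp1, Mael, Sycp3, Smc1b and Rpl10l, and lower in 5, by less than 0.1 in each. In Sycp1 the 2 kb upstream had a mean of 0.487 and the island, 130 of whose bases are in the sequence above, had 0.904.

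**Figure D1:**
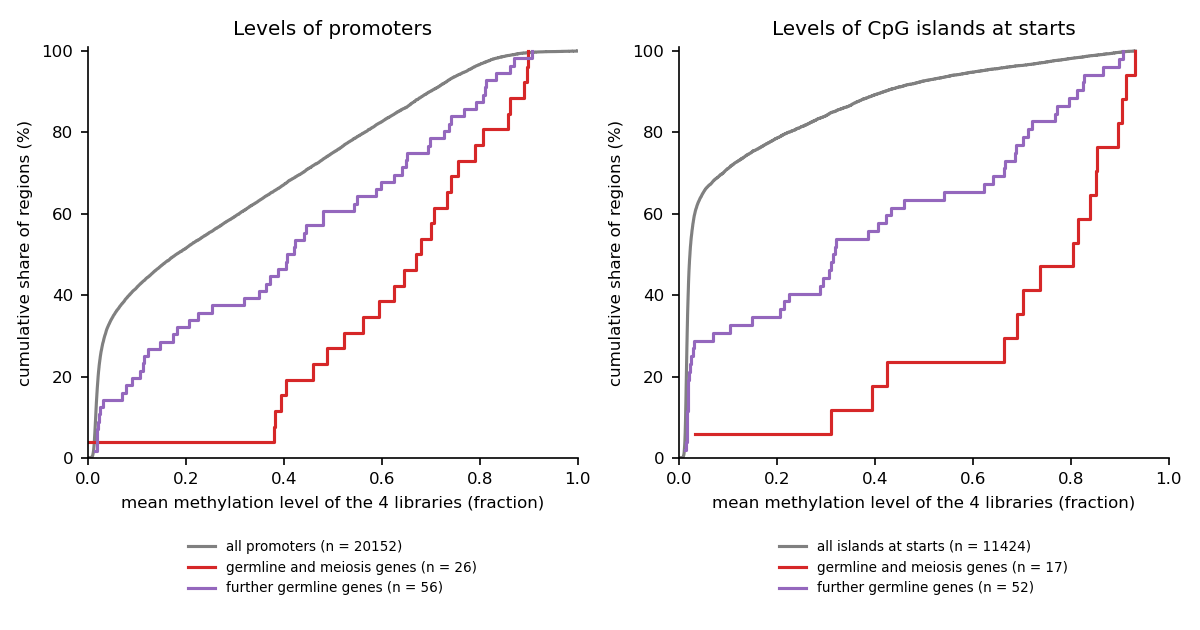
Cumulative share of promoters (left) and of CpG islands at starts (right), in percent, against the mean methylation level over the 4 libraries, for all regions (grey), the germline and meiosis genes (red) and further germline genes (purple). The red curves climb mostly above a level of 0.6, where 16 of 26 promoters and 13 of 17 islands lie, whereas the grey curves rise steepest near 0.

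High levels at CpG-poor promoters are common in any somatic cell, so CpG content was set beside the level. Over the 23 germline genes with a promoter level and a RefSeq window, the CpG observed/expected ratio of the window had a median of 0.733, close to the 0.734 of all 12006 such genes. The members were thus not a CpG-poor group. Of the 16 members with a CpG-rich window, 9 had a promoter level of at least 0.6, compared with 473 (5.94%) of the 7958 CpG-rich promoters of all genes, and the median levels were 0.694 and 0.0432. The RefSeq window and the promoter need not share a start. In Tex101, among the 9, the window (chr7:24672001-24672300) lies inside the minus-strand gene as GENCODE places it (chr7:24668007-24676675). Over the whole 2 kb upstream of the GENCODE start the ratio was lower in both sets, with medians of 0.305 for the same 23 members and 0.357 for the same 12006 genes.

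**Figure D2:**
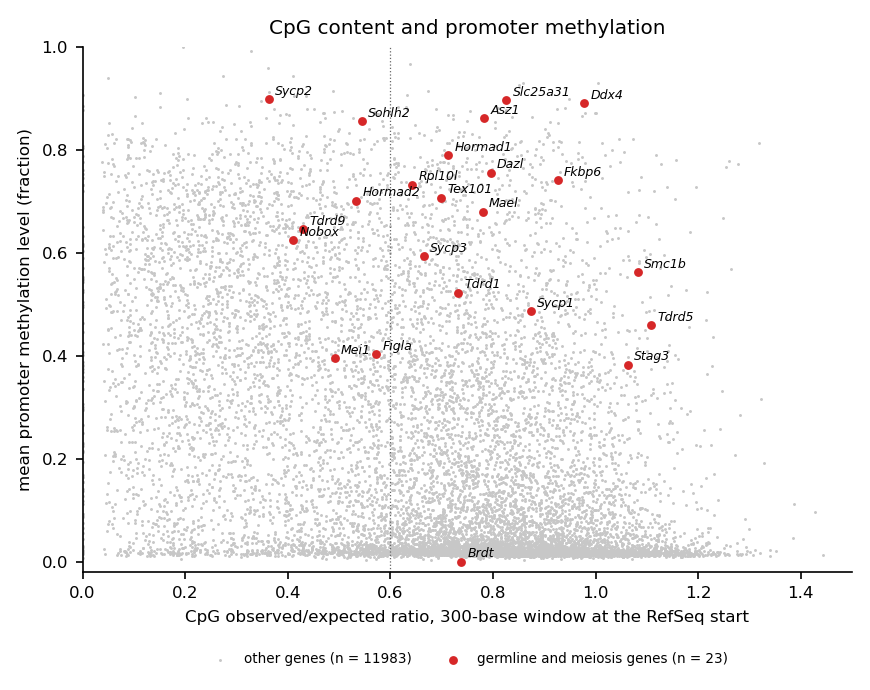
Mean promoter methylation level over the 4 libraries (vertical axis, fraction) against the CpG observed/expected ratio of the 300-base RefSeq window at the start (horizontal axis), with 1 point per gene. The dotted line marks a ratio of 0.6. To its right most genes lie near a level of 0, whereas 9 of the 16 germline genes there lie at or above 0.6 and Brdt lies at 0.

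The genes of the chromosome axis and the synaptonemal complex, which hold homologous chromosomes together in meiotic prophase, had 3 of 7 promoters and 5 of 6 start islands at or above 0.6. In what follows, 4 levels in a row are those of the NC, siDNMT1, NC OB and siDNMT1 OB libraries, in that order. The promoter of Sycp2, a component of the lateral element, had 0.898, 0.892, 0.914 and 0.892, with NC OB highest. That of Sycp1, which forms the transverse filaments, had 0.506, 0.503, 0.449 and 0.491, with NC OB lowest. Sycp3, the other lateral element protein, had 0.509, 0.508, 0.629 and 0.727. Its 2 OB libraries were thus above its 2 uninduced libraries, which lay within 0.01 of each other. Hormad1 and Hormad2 encode HORMA-domain proteins that sit on unsynapsed axes, and the promoter of Hormad1 had 0.792, 0.781, 0.792 and 0.796. The promoter of Hormad2 had 0.705, 0.707, 0.711 and 0.682. Hormad1 was within 0.02 in the 4 libraries, and Hormad2 was lowest in siDNMT1 OB. The cohesin subunits specific to meiosis had lower promoters. That of Stag3 had 0.391, 0.390, 0.358 and 0.392, and its lowest library was NC OB. Smc1b had 0.540, 0.560, 0.558 and 0.590, and it was lowest in NC and highest in siDNMT1 OB. The third such subunit, Rec8, has levels in the uninduced libraries only, and they are 0.10 with NC and 1 with siDNMT1 at the promoter and 0.75 and 0.222 at the exons, so a promoter that rose and exons that fell were listed for the same gene and no comparison is drawn. Its intron levels equal those of the promoter. Syce1, of the central element, has no promoter level, and its intron entry had 0.524, 0.539, 0.595 and 0.558.

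In this group the start island of Sycp1 (chr3:102935375-102936230, which spans the start) had 0.901, 0.901, 0.922 and 0.894, with NC OB highest. That of Sycp2 had 0.90, 0.885, 0.910 and 0.888, and that of Hormad1 had 0.837, 0.830, 0.845 and 0.846. All 3 stayed above 0.8 in every library. The Sycp3 island (chr10:88459495-88459991) had 0.735, 0.731, 0.752 and 0.728, with no gap between the OB and the uninduced libraries like that of the promoter upstream. The Smc1b island had 0.706, 0.699, 0.708 and 0.697. The Stag3 island had 0.414, 0.395, 0.359 and 0.406 and was lowest in NC OB, as its promoter was.

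Recombination genes had the lowest promoters, with a median of 0.387 over 2 genes. Spo11, whose product makes the double-strand breaks that start recombination, had 0.381, 0.345, 0.398 and 0.395 at its promoter, lowest in siDNMT1. An island at an internal transcript start of Spo11, 2055 bases from the start of the gene (chr2:172979755-172980130), had the higher levels of 0.697, 0.679, 0.701 and 0.681, with both siDNMT1 libraries below both NC libraries. Mei1, which is needed for those breaks, had 0.457, 0.398, 0.50 and 0.224. Its siDNMT1 OB library stood well below the other 3, and the 2 NC libraries were highest. Dmc1, the recombinase that pairs strands of homologues, has no level in any region class.

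The piRNA pathway protects the germline genome from transposons, and its genes had 7 of 9 promoters and 4 of 5 start islands at or above 0.6. The promoter of Ddx4, a germ-granule RNA helicase, had 0.891, 0.889, 0.899 and 0.885, and its island (chr13:112651960-112652503) had 0.932, 0.930, 0.934 and 0.927, the highest mean of all 17 islands. Mael, a germ-granule protein needed for transposon silencing, had 0.678, 0.660, 0.70 and 0.683 at the promoter and 0.859, 0.852, 0.851 and 0.852 at the island. The island of Mael was within 0.01 in the 4 libraries. Asz1, which builds the granules at mitochondria, had 0.857, 0.848, 0.878 and 0.865. Piwil2, a piRNA-binding Argonaute protein, had 0.668, 0.671, 0.679 and 0.663. Both were highest in NC OB. Fkbp6, a co-chaperone of the pathway, had 0.743, 0.730, 0.731 and 0.764 at the promoter and 0.812, 0.816, 0.814 and 0.819 at the island, which was nearly flat. Rnf17, a tudor protein, had 0.803, 0.799, 0.833 and 0.794 at the promoter and 0.803, 0.806, 0.813 and 0.797 at the island. Both regions of Rnf17 were highest in NC OB and lowest in siDNMT1 OB. The promoter and 5′ UTR entries of Rnf17 are equal in every library, and its island lies 38 bases from the gene start. The promoter and island levels may therefore share cytosines. The other tudor proteins, which bind methylated arginines of PIWI proteins, had lower promoters. Tdrd1 had 0.512, 0.527, 0.531 and 0.522, within 0.02 of each other. Tdrd5 had 0.478, 0.469, 0.442 and 0.446. Tdrd9 had 0.662, 0.688, 0.635 and 0.598 and was lower in both OB libraries than in both uninduced ones. The Tdrd5 island had 0.440, 0.446, 0.399 and 0.413 and, like its promoter, was lower in both OB libraries. The Tdrd1 island has a level in 2 libraries only, 0.80 in NC and 0.873 in siDNMT1 OB. Piwil1, Piwil4, Mov10l1 (a helicase that acts on piRNA precursors) and Stk31 (a tudor kinase) have no promoter level. Their intron means were 0.485, 0.737, 0.577 and 0.0687, so that Stk31 was the 1 intron entry below 0.2. Piwil1 was lower outside its introns and exons, with means of 0.208 at the 5′ UTR and 0.192 at the 3′ UTR.

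Among the RNA-binding and other germ cell proteins, 4 of 5 promoters and 3 of 4 start islands were at or above 0.6. Dazl, which controls translation in germ cells, had 0.756, 0.754, 0.765 and 0.749 at the promoter and 0.670, 0.662, 0.661 and 0.663 at the island. Slc25a31, the ADP/ATP carrier of the testis, had 0.905, 0.892, 0.90 and 0.891 at the promoter and 0.925, 0.907, 0.911 and 0.906 at the island. In both regions of Slc25a31 the NC library was highest, by less than 0.02. Rpl10l, a testis copy of a ribosomal protein gene, had 0.738, 0.719, 0.769 and 0.705 at the promoter and 0.868, 0.844, 0.854 and 0.842 at the island. At its promoter both siDNMT1 libraries lay below both NC libraries. The same was true of Tex101, a germ cell surface glycoprotein, with 0.715, 0.693, 0.735 and 0.687. Brdt, the testis bromodomain protein that reads acetylated histones, was the exception, with a promoter level of 0 in all 4 libraries. The island listed for Brdt lies at an internal transcript start 28522 bases from the start of the gene and had 0.0346, 0.00741, 0.0364 and 0.0526. The shore that begins 86 bases after the start of Brdt had 0.606, 0.611, 0.639 and 0.612, so the 0 upstream did not extend there. Tex19.1, which restrains transposons, has no promoter level, and its exons had 0.615, 0.621, 0.617 and 0.629, identical to its 3′ UTR.

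The oocyte and early germ cell transcription factors have no start island with a level. Sohlh2, a bHLH factor of early germ cells, had a promoter at 0.865, 0.839, 0.860 and 0.862. Nobox, an oocyte homeobox factor, had 0.610, 0.666, 0.621 and 0.60 with siDNMT1 highest. Figla, which activates egg coat genes, had 0.393, 0.418, 0.414 and 0.390. The Figla promoter and intron entries are equal in every library. Sohlh1, the partner of Sohlh2, has no promoter level, and its exons had 0.652, 0.634, 0.640 and 0.638. Zp3, an egg coat glycoprotein, has none either, and its exons had 0.570, 0.586, 0.586 and 0.563.

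**Figure D3:**
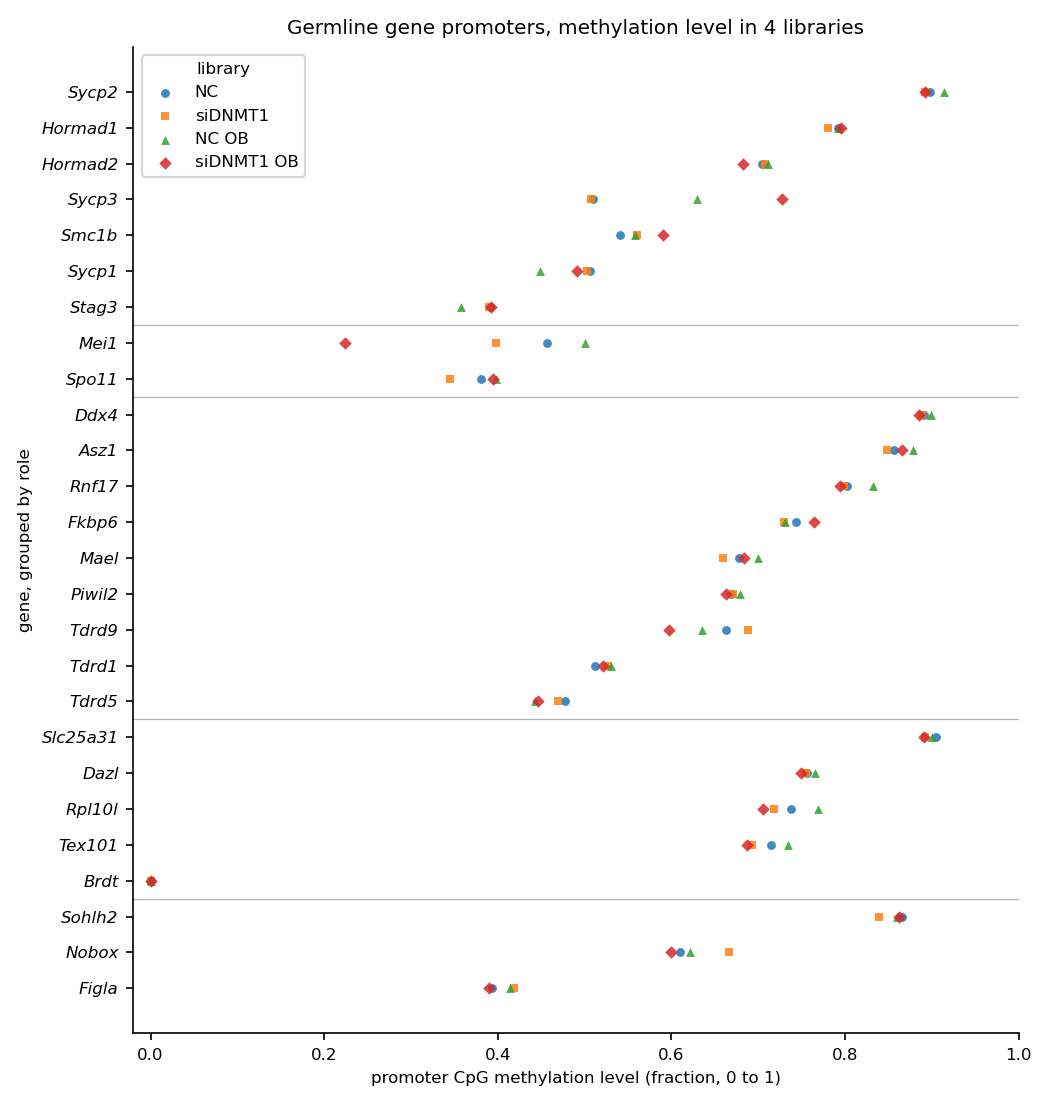
Promoter methylation level (fraction) of the 26 germline genes with a level in all 4 libraries, 1 row per gene grouped by role, from top to bottom the chromosome axis, recombination, the piRNA pathway, RNA-binding and other proteins, and transcription factors. Symbols are the 4 libraries, and they mostly overlap, with Mei1 and Sycp3 spread the widest and Brdt at 0.

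**Figure D4:**
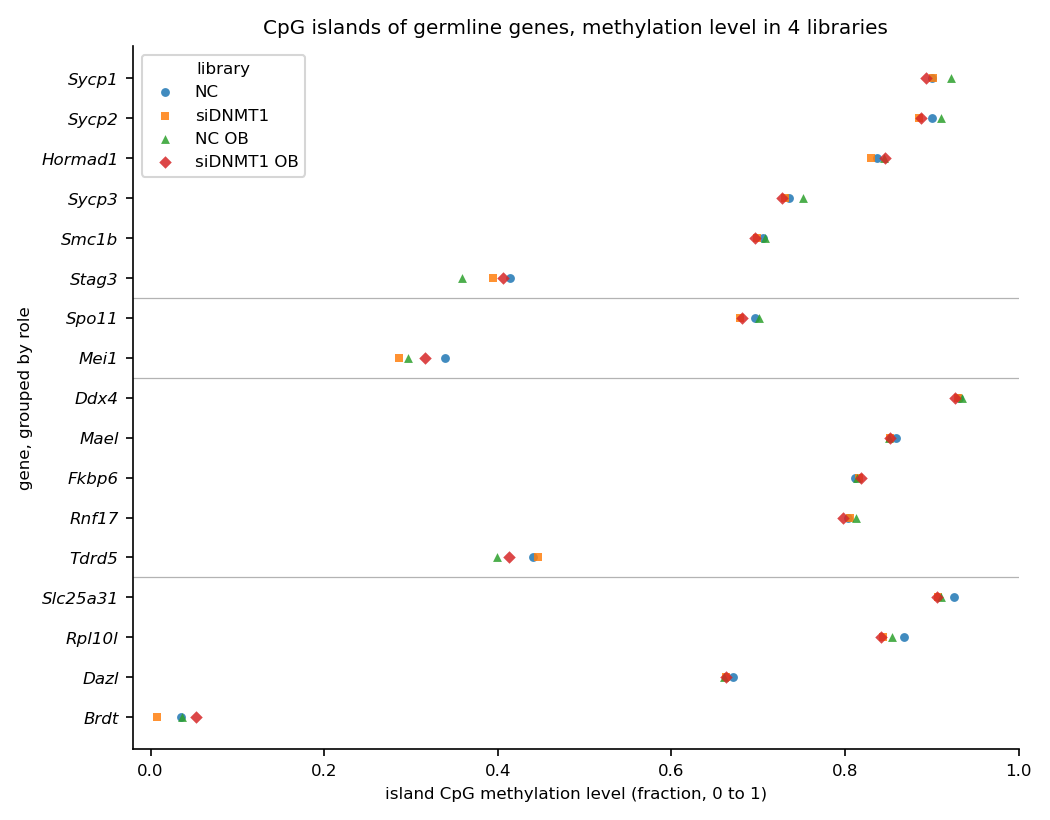
Methylation level (fraction) of the 17 CpG islands at starts of germline genes in the same 4 libraries, grouped by role in the same order, without the transcription factors, which have none. The 13 islands at or above 0.6 keep nearly the same level in the 4 libraries, and Stag3, Mei1 and Tdrd5 lie between 0.286 and 0.446.

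Over the 25 member promoters with a mean of at least 0.2, the highest and the lowest library differed by a median of 0.0343, and by less than 0.05 in 18 (72.0%). The same range had a median of 0.0469 over the 9766 promoters of that level, with 54.4% under 0.05. For the 16 member islands at starts with such a mean the median range was 0.0210, against 0.0514 for 2447 islands. These ranges are not matched for level. At or above 0.6 were 16 of the 25 member promoters and 3499 of the 9766, and 13 of the 16 member islands and 592 of the 2447. In that class the median absolute difference between the NC libraries was 0.0116 for member promoters and 0.0141 for all. For islands at starts it was 0.00936 and 0.0168.

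The question of the siDNMT1 comparison is whether the germline genes lost methylation with DNMT1 depletion. In uninduced cells none of the 26 member promoters differed by 0.1 or more between siDNMT1 and NC, and 1.48% of all promoters did. The siDNMT1 level was lower in 18, higher in 7 and equal in Brdt, with a median difference of -0.00333, compared with -0.000713 over all promoters, of which 10718 of 20152 were lower. The differences ran from -0.0588 in Mei1 to 0.0560 in Nobox. After OB induction 1 of 26, Mei1, differed by 0.1 or more (-0.276), and 2.19% of all promoters did. The level was lower in 17 and higher in 8, with a median of -0.0131, compared with -0.00371 over all, of which 12905 were lower. Among promoters at or above 0.6, where there is most methylation to lose, the 16 members had medians of -0.00713 before and -0.0168 after induction, and all 3499 had -0.00850 and -0.0211. In this class the member medians were no larger in size than those of all promoters, at median levels of 0.749 and 0.717, and 13 of the 16 members were lower after induction, as were 2906 of the 3499.

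At the islands no member differed by 0.1 or more between siDNMT1 and NC, before or after induction, and 0.403% and 0.481% of all islands at starts did. The largest difference was -0.0539, in Mei1 before induction. Before induction the median was -0.00718, with 13 of 17 lower, whereas over all 11424 islands at starts it was 0.000678, with 4970 lower. After induction the median was -0.00542, with 9 of 17 lower, and over all islands at starts -0.000594, with 6334 lower. For the 13 islands at or above 0.6 the medians were -0.00688 and -0.0112, close to the -0.00670 and -0.0121 of all 592 such islands.

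**Figure D5:**
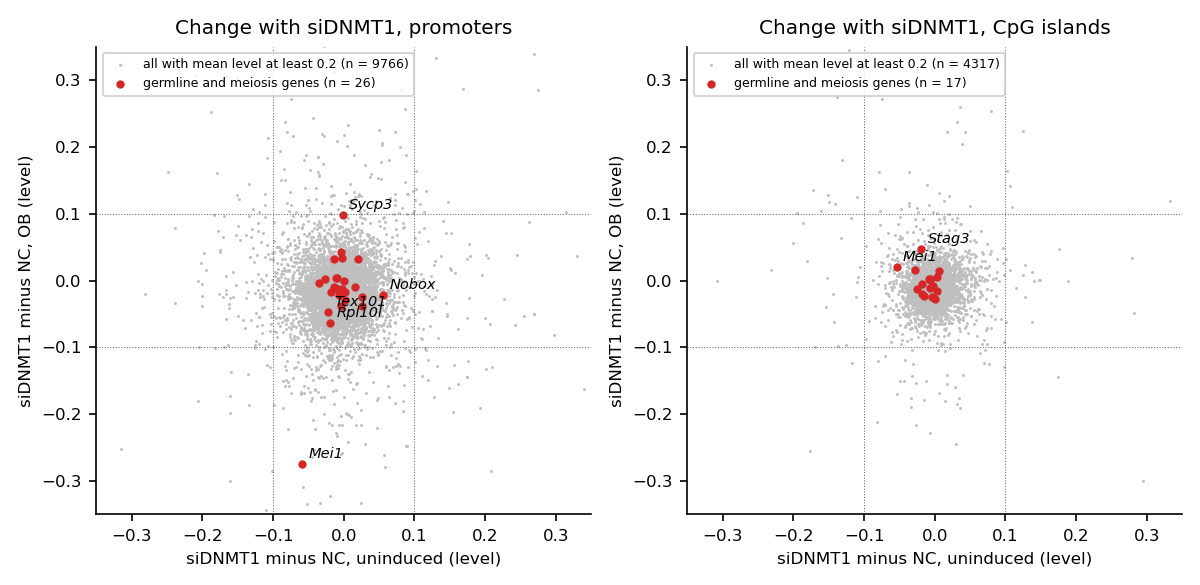
Difference in methylation level between siDNMT1 and NC in OB libraries (vertical) against that in uninduced libraries (horizontal), for promoters (left) and CpG islands (right). Red points are all germline genes with 4 levels, grey points all regions with a mean of at least 0.2, of which 29 of 9766 promoters and 3 of 4317 islands fall outside the axes, and dotted lines mark a difference of 0.1 either way. Mei1 alone lies beyond a dotted line among the promoters, and no germline island does.

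Mei1 was examined further because its promoter fell the most. The promoter levels were 0.457, 0.398, 0.50 and 0.224, and of all promoters with a mean between 0.2 and 0.6, 4.47% differed by 0.1 or more after induction. No other region of Mei1 differed by as much. Its start island (chr15:82070005-82070309) had 0.340, 0.286, 0.297 and 0.317, its 5′ UTR 0.50, 0.457, 0.553 and 0.506 and its exons 0.369, 0.318, 0.316 and 0.317. The introns had 0.697, 0.679, 0.683 and 0.656. The siDNMT1 level was lower than that of NC before and after induction in the 5′ UTR and the introns, by less than 0.05 in each. The island and the exons were lower before induction only, by less than 0.06. The annotations place the start differently, since GENCODE begins the gene at the first base of chr15:82069996-82126814 and the RefSeq window, chr15:82082226-82082525, lies inside it. The 2 kb upstream of the GENCODE start holds 33 CpGs, and how many of them were read is unknown.

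Sycp3 came next, with a promoter difference of 0.0982 after induction and -0.00115 before it. The promoter and 5′ UTR entries of Sycp3 have the same value in every library and so carry 1 measurement. The island that spans the start, 74 of whose bases are in the sequence above, differed the other way after induction, by -0.0240.

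Outside promoters and islands, few member entries differed by 0.1 or more between siDNMT1 and NC, and none did so in both comparisons. Of 19 5′ UTR entries none did before induction (1.40% of all) and Piwil2 did after it (1.78% of all). Piwil2 had 0.503, 0.518, 0.655 and 0.505 there, so the NC OB library stood above the other 3. Among 29 exon entries none did before (1.63% of all) and that of Tdrd1 did after it (2.30% of all), with 0.428, 0.480, 0.525 and 0.421 and NC OB again the highest. In introns Ddx4 was the 1 of 30 before induction (1.32% of all) and none was after it (1.87% of all). The Ddx4 intron had 0.830, 0.651, 0.829 and 0.853, with siDNMT1 below the other 3, while the island, 5′ UTR and promoter of Ddx4 stayed at or above 0.885 in every library. Of the 4 3′ UTR entries none did before (2.71% of all) and Fkbp6 did after it (3.65% of all), with 0.333, 0.368, 0.30 and 0.150 and siDNMT1 OB the lowest. Each of these counts is 0 or 1 of few entries, so none sets the germline genes apart from the share over all entries. The exon of Syce1, with OB levels only, had 0.729 with NC and 0.554 with siDNMT1.

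The OB comparison asks whether early osteoblast induction moved the same genes. It uses the same 4 libraries, so each library enters both kinds of comparison. Between the NC libraries 1 of 26 promoters differed by 0.1 or more, Sycp3 (0.120), as did 2.17% of all promoters. The OB level was higher in 18 and lower in 7, with a median of 0.0114, whereas over all promoters the median was -0.00320, with 7340 of 20152 higher. Between the siDNMT1 libraries Sycp3 (0.219) and Mei1 (-0.174) did, as did 3.36% of all promoters, and the median was -0.00418, compared with -0.00654 over all. Among promoters at or above 0.6 the median between the NC libraries was 0.0103 for the 16 members, with 12 higher. For all 3499 it was -0.000557, with 1691 higher. Between the siDNMT1 libraries the medians of this class were -0.00418 and -0.0138.

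The highly methylated member islands moved little between OB and uninduced libraries. The intermediate ones were lower in NC OB than in NC, but between the siDNMT1 libraries they moved both ways. No member island differed by 0.1 or more between OB and uninduced cells, in NC or in siDNMT1 libraries (0.893% and 0.849% of all islands at starts). For the 13 member islands at or above 0.6 the median was 0.00286 between NC libraries, with 9 higher, and -0.000979 between siDNMT1 libraries, with 8 lower. Over all 592 islands at starts of that level it was -0.0140 and -0.0217, with 463 and 515 lower. The member islands had a higher median level, 0.840 against 0.756, so islands at or above 0.8 were also compared, a bound set after the values were seen. There 9 member islands had medians of 0.00286 and -0.000979, and all 208 had -0.00589 and -0.0115, at median levels of 0.853 and 0.859. Further germline genes, a wider list by name, did not share these medians at or above 0.6. Their 18 start islands at or above 0.6, also compared after the values were seen, had medians of -0.0158, with 12 lower, and -0.0186, with 14 lower. Among them, those of Msh4, D1Pas1, Meioc, Tuba3a, Boll and Stra8 were at or above 0.8. In that order they differed by 0.000611, 0.00389, -0.0173, 0.0138, 0.0164 and 0.00510 between the NC libraries. Between the siDNMT1 libraries they differed by -0.0221, 0.000213, -0.01575, -0.00458, -0.0248 and 0.0190. At that level most were thus higher in NC OB than in NC, as were most member islands. The intermediate member islands differed between the NC libraries by -0.0548 in Stag3, -0.0411 in Tdrd5 and -0.0430 in Mei1. Between the siDNMT1 libraries they differed by 0.0115 in Stag3, -0.0329 in Tdrd5 and 0.0306 in Mei1.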

How the data were processed

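DNA of 4 C3H10T1/2 cultures was sequenced after bisulfite treatment, 1 library per condition. The stated protocol fragments DNA by sonication and names no restriction enzyme. According to the methods and the submitters' processing notes, reads were called with CASAVA, trimmed with Trimmomatic 0.36 and aligned to mm10 with Bismark 0.16.3. The authors deposited, for each of 8 classes of regions, 1 methylated fraction of CpG cytosines per region, 155398 to 159705 regions per library. The coverage minimum and the weighting of cytosines are not given in the sources used here, so precision is unknown.

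Members were matched by Ensembl identifier through GENCODE vM21, and islands by overlap with the gene. Members and lists were chosen with earlier results of these data known. Regions with a level in all 4 libraries were compared by subtraction, a change was counted from 0.1, and classes were cut at 0.2 and 0.6. Classes can share cytosines, and 9 genes have 2 entries with equal levels in every library. All 36 members are named; 4 levels are printed for every promoter with a mean of at least 0.2, and for other regions that changed by at least 0.1. Levels of islands and of members without a promoter were added. Of the further genes, the 5 highest promoters are named. The subtraction and counting were tested on simulated data. Sequences and motifs came from RefSeq windows and the genome, GRCm38.p6. Python 3.11.15, pandas 2.3.3, numpy 2.4.6, pysam 0.24.0 and matplotlib 3.10.9 were used.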

Additional observations from a re-analysis of the deposited data

How the results depend on the processing

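With 1 library per condition no spread between replicates exists, and a median was called moved when it shifted by more than the median absolute difference between the 2 NC libraries over all regions of its class (0.00546 to 0.0146). Medians of log2 levels were instead judged by their sign alone. Counts were judged by their ratio to the reported count, and the CpG ratio by its standard deviation over the members. Of 96 alternative values 62 were unmoved, among them 27 of 31 medians. The 2 NC libraries also differ by induction. For promoters the bound was 0.0107, larger than the siDNMT1 median of -0.00333 before induction. A median could therefore change sign and still count as unmoved. Centring on promoters at or above 0.6 turned the promoter median before induction to 0.00664, which was counted as unmoved. No paired analysis was possible because each condition has 1 library, and for the same reason no library was left out.

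Counts moved most with the threshold. At 0.05 the member promoters that differed with siDNMT1 were 2 before and 3 after induction, the 5′ UTR entries 1 and 2, the exon entries 3 and 2, the intron entries after induction 3, the 3′ UTR entries after induction 2, the islands before induction 1, the further germline promoters 3 and 7, and the OB comparisons gave 2 with NC and 4 with siDNMT1. At 0.2 the counts of 5′ UTR, exon and 3′ UTR entries after induction, of introns before it, of further promoters in both comparisons and of the OB comparison with NC were 0, and that with siDNMT1 was 1. With levels required in the compared libraries alone, 1 promoter (Rec8), 1 exon (Rec8) and 2 introns (Ddx4 and Rec8) differed before induction and 2 exons (Tdrd1 and Syce1) after it. Centring on the median of all promoters, or of those at or above 0.6, gave 2 promoters after induction, since Sycp3 passed 0.1. The second centring turned the median after induction to 0.0110, and the first moved the OB medians to 0.0285 with NC and 0.0197 with siDNMT1. Both centrings subtracted the difference between the median levels of 2 libraries, over all promoters 0.174 in NC OB and 0.191 in NC. The median difference per promoter was smaller in size, -0.00320 there, so the centred medians depend on that choice. Without Mei1, an alternative chosen after seeing the data, the promoter count after induction was 0. For islands spanning the GENCODE start, also chosen then, the median after induction was 0.000392. A high class from 0.75 held 8 member promoters. The CpG ratio over 2 kb had a median of 0.305 in the 23 members with a RefSeq window.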

Other observations

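The high levels were not shared evenly by all germline genes. Of 105 further germline and meiosis genes from a list written with earlier results of these data known, 100 were matched to the annotation and 56 had a promoter level in all 4 libraries. Their levels spread over the whole scale, with 18 at or above 0.6, 20 between and 18 below 0.2, and the median was 0.413. Of 52 islands at starts of 49 of these genes, 18 (34.6%) were at or above 0.6 and 18 below 0.2, with a median of 0.316. The 5 highest promoters were those of Msh4, Gpat2, Tuba3a, Terb1 and Rec114. Msh4, whose product stabilises recombination intermediates, had 0.921, 0.901, 0.922 and 0.879 in the NC, siDNMT1, NC OB and siDNMT1 OB libraries. Gpat2, a germ cell acyltransferase linked to piRNA production, had 0.849, 0.895, 0.849 and 0.890, with both siDNMT1 libraries above both NC libraries. Tuba3a, a testis tubulin, had 0.873, 0.859, 0.869 and 0.849. Terb1, which ties telomeres to the nuclear envelope in meiosis, had 0.853, 0.844, 0.850 and 0.784, lowest in siDNMT1 OB. Rec114, needed for the breaks that Spo11 makes, had 0.828, 0.810, 0.806 and 0.805.

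None of the 56 further promoters differed by at least 0.1 between siDNMT1 and NC in the same direction before and after induction. Before induction 1 did, that of Prdm14, a primordial germ cell factor, with a difference of -0.136, as did 1.48% of all promoters. After induction 3 did, all higher with siDNMT1: Syce3, of the synaptonemal complex (0.125), Tex15, a transposon silencing factor (0.109), and Dppa3, a factor of the early germline and the oocyte (0.101). These 4 are named after their values were seen. Over all promoters 2.19% did after induction, 159 higher and 282 lower. The median differences of the 56 were -0.00176 and -0.00448, and those of all promoters -0.000713 and -0.00371.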
